A study of Homo sapiens with 4 samples.

Results

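The genes described here are DPP4, which encodes CD26, and a small set of genes of the intestinal brush border, namely the peptidase gene ANPEP, the actin-bundling protein gene VIL1, the microvillus motor gene MYO1A and the regulator gene HNF4A. HT29, a human colorectal adenocarcinoma cell line grown in DMEM with FBS, was stained for CD26 and sorted by FACS, and the cells at the top and at the bottom of CD26 staining were collected as CD26+ and CD26- cells. From 2 CD26+ and 2 CD26- samples, total RNA was labelled by the 3'-IVT method and read on 1 Affymetrix U133 Plus 2.0 array each. No gene was altered in these cells, so the sort is the only labelled difference between the groups.

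The members are 7 probe sets of 5 genes, among 8413 probe sets of 6603 genes that the authors' deposited table pairs with exactly 1 symbol and 54613 probe sets measured. They were chosen by measured values. The probe sets in the table are at least 2-fold apart in signal between CD26+ replicate 1 and CD26- replicate 1, which is how that pair was identified, although the header of the table marks its CD26+ array with a 2. It lists 11404 probe sets, the smallest fold being 2.00 after rounding, while 10244 of the 21647 that far apart are absent from it by an unknown rule. The header gives both arrays of the pair the same code in the form of a date, and whether a shared day plays a part was not tested. The set was proposed with earlier results of these data in view. Between these 2 arrays 6 member probe sets were therefore higher on CD26+ replicate 1 and 1, that of MYO1A, was lower, while 20.6% of all probe sets were at least 2-fold higher and 19.0% at least 2-fold lower in that pair. Nothing is read from these counts. The members nearest to the limit were HNF4A, with a ratio of 2.03, MYO1A, with 2.16 in favour of CD26- replicate 1, and the narrower VIL1 probe set, with 2.32, and probe sets on the other side of the limit, like those left out, carry no symbol here.

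The brush border is the carpet of microvilli on the apical face of absorptive enterocytes. Its membrane carries peptidases such as CD26 and aminopeptidase N, which cleave short peptides for uptake, and each microvillus is held up by an actin core that villin bundles and that MYO1A ties to the membrane. HNF4A, a nuclear receptor, is a regulator of enterocyte genes and acts beside the HNF1 and CDX factors, and HT29 cells are known for a capacity to take on enterocyte or goblet features in culture.

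The promoters of the members are shown because these genes are usually considered together as targets of the HNF and CDX factors, and because ANPEP, MYO1A and HNF4A each have more than 1 annotated start that a single probe set cannot tell apart. RefSeq (GRCh38.p14) gave 7 promoter entries, from 250 bases before to 50 bases after a start, for 4 of the 5 genes. Both strands were searched for short motifs: GTTAAT for HNF1 factors, CAAAGT for HNF4 factors, TTTATG and its variant TTTATT for CDX factors, and AGATAA with its variant TGATAA for GATA factors. No matches overlap in these promoters. A match is a description of these letters only. Capitals mark the matches.
ANPEP, start nearer to the coding sequence, known in epithelial cells (chr15:89806579-89806878, minus strand): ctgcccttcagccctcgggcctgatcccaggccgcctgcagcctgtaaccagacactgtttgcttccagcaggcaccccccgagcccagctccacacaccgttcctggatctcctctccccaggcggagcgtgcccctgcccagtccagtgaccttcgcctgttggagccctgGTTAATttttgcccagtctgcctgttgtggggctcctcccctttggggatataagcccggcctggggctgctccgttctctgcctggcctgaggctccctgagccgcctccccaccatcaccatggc
HNF4A, downstream start (chr20:44400989-44401288, plus strand): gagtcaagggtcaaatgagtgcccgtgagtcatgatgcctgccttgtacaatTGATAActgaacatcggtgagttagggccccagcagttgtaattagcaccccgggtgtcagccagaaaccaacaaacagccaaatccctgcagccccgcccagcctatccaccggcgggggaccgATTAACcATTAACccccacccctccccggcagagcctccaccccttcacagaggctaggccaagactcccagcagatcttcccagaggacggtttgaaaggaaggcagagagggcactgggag
MYO1A, downstream start (chr12:57050080-57050379, minus strand): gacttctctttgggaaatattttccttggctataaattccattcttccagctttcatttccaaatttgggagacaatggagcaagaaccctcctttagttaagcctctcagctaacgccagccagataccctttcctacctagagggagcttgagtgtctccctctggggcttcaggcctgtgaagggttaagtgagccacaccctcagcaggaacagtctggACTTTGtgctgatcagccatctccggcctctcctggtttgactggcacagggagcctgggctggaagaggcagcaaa
MYO1A, upstream start (chr12:57051149-57051448, minus strand): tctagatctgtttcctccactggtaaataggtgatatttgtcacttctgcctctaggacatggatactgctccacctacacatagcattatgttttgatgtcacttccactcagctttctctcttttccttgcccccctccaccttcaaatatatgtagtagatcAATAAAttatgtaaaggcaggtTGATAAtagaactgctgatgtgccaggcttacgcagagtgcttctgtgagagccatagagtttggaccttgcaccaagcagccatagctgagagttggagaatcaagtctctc
DPP4 (chr2:162074166-162074465, minus strand): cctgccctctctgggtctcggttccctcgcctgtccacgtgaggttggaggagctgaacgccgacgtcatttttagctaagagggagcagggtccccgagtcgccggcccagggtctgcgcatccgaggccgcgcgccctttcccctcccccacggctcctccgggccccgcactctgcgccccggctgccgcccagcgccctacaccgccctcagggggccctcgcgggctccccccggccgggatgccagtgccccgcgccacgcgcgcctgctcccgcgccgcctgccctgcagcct
The downstream ANPEP promoter holds 1 HNF1 match, at position 174 of 300, and that of HNF4A holds 2 HNF1 matches and 1 GATA match. The upstream HNF4A promoter (chr20:44355449-44355748), which is not printed, holds 1 GATA match. The downstream MYO1A promoter holds 1 HNF4 match, while the upstream one holds 1 CDX and 1 GATA match. The DPP4 promoter and the upstream ANPEP promoter hold 0 matches of any of the 4 motifs, and both have a GC content of 75.0%, against a median of 58.7% over 35116 promoters of this length. Among these promoters 6.88% hold the HNF1 letters, 11.9% the HNF4 letters, 24.3% the CDX letters and 16.3% the GATA letters.

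Each group had an array that limits the comparisons. CD26+ replicate 2 stood apart, since across probe sets (no independent replicates) its Pearson r with the other 3 arrays was 0.304 to 0.333, against 0.904 to 0.918 among those 3, and its median signal was 269.7, against 75.9 to 96.5. It was kept, and values without it are given beside those with it. The array labelled CD26- replicate 2 had a high DPP4 signal, unlike CD26- replicate 1. The sort gated on CD26 protein at the cell surface, while the arrays read DPP4 mRNA, which is a different measure. Whether the label is wrong was not tested. That array is therefore called by its label, and its value stands last wherever 2 values on the arrays labelled CD26- are given. Every fold change between the groups depends on that label. The sample labels call the arrays biological replicates without saying what separates them, so p-values over them speak only of how these samples vary, possibly for technical reasons. With 2 arrays against 2 an exact permutation test cannot give a two-sided p under 0.33. After quantile normalization and log2(signal + 16), limma called 0 of 54613 probe sets at an adjusted p under 0.05 (0%, 852 at an unadjusted p under 0.05), and the methods' t-test also gave 0 after adjustment. The members were chosen on the same contrast, so their differences are given as a description with the standard error of the limma fit and with no p-value. On this scale fold changes of dim probe sets come out too small, and in RNA of sorted populations fewer cells with a transcript cannot be told apart from less transcript per cell.

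DPP4, whose protein was the gate of the sort, did not separate the groups by its mRNA on the arrays. It has 2 probe sets, told apart here by the span of their alignments. The wider (chromosome 2, 162848758 to 162930567 in the deposited alignment, whose build is not given in the sources used here) read 6649 and 2513 on CD26+ replicates 1 and 2, against 1952 on CD26- replicate 1 and a signal of 6465 on the array labelled CD26- replicate 2. The narrower (chromosome 2, 162849732 to 162929998) read 516 and 549 in CD26+ cells, against 203 and 867 on the arrays labelled CD26-. For both, CD26- replicate 1 was the lowest array, and after normalization the array labelled CD26- replicate 2 was the highest and CD26+ replicate 1 the next. The log2 fold change (CD26+ over CD26-) came to 0.46 (standard error 0.98) for the wider probe set and -0.11 (standard error 0.95) for the narrower one, and without CD26+ replicate 2 it was 0.72 and 0.26. Without CD26- replicate 1 that of the wider probe set was -0.44, and without the array labelled CD26- replicate 2 it was 1.36. The ratio of the wider to the narrower probe set was 12.9 and 4.58 on the CD26+ arrays and 9.62 and 7.45 on the CD26- arrays, so the probe sets did not change equally.

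**Figure D1:**
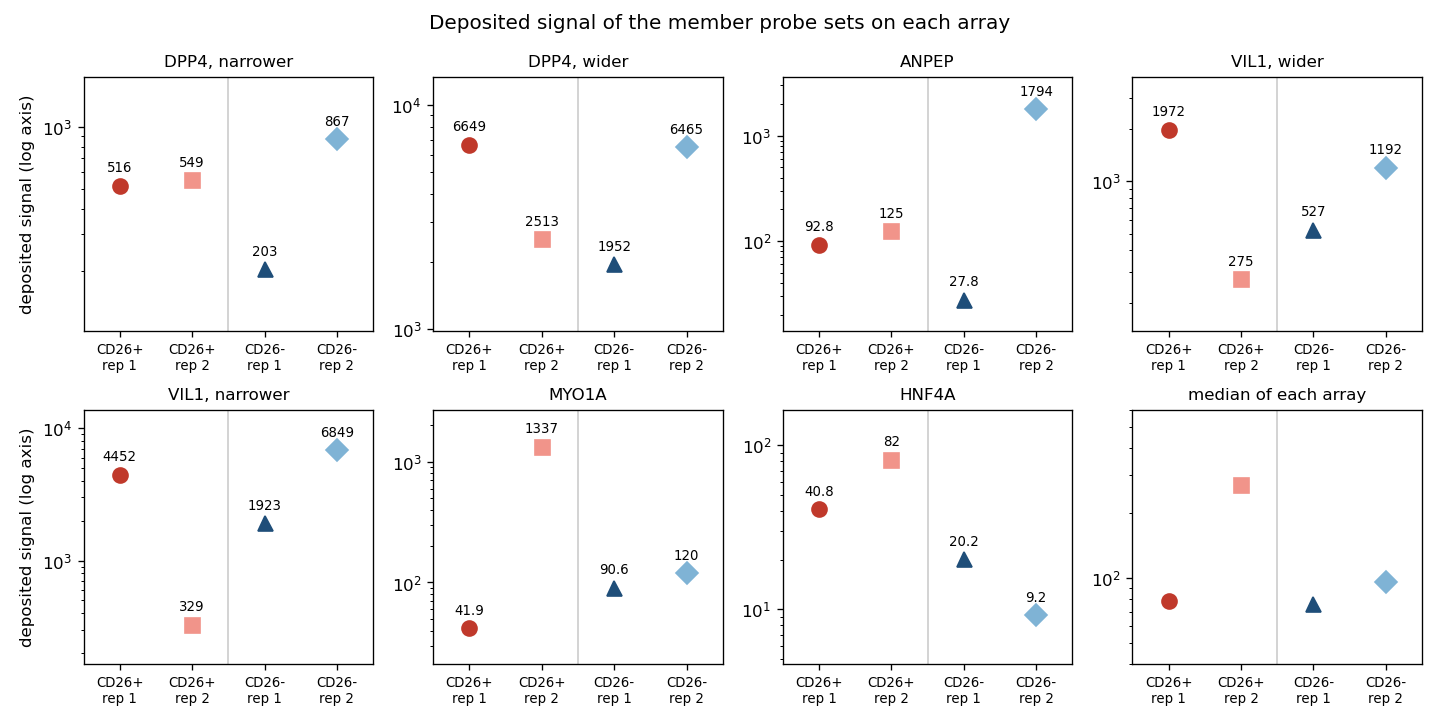
Deposited signal of each member probe set (log axis, 1 panel per probe set, 1 point per array, CD26+ arrays left of CD26- arrays) and the median signal of each array in the last panel. No panel but that of HNF4A has both CD26+ arrays above both CD26- arrays, and there the signals are at or below 82.0.

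ANPEP, which encodes aminopeptidase N, a zinc-dependent ectopeptidase that removes residues from the amino end of peptides, was seen at a high level on a single array. Its probe set (chromosome 15, 90328126 to 90349934) read 92.8 and 125 in CD26+ cells, against 27.8 on CD26- replicate 1 and a signal of 1794 on the array labelled CD26- replicate 2. Both CD26+ arrays thus lay between the 2 CD26- arrays. The array labelled CD26- replicate 2 was 64.5-fold above CD26- replicate 1 and 19.3-fold above CD26+ replicate 1, and 81 of 54613 probe sets had at least as large a ratio between the arrays labelled CD26-. The signal of 27.8 was below the median of its array and was not shown to be above background, so the size of this ratio is uncertain. In place within the array, the probe set moved between the 31.6th and 53.2nd percentile on the CD26+ arrays and between the 30.9th and 90.4th on the CD26- arrays. The log2 fold change was -1.65 (standard error 1.65), it was -1.04 without CD26+ replicate 2, and it turned to 0.65 without the array labelled CD26- replicate 2. In the CD26- group the SD of the normalized log2 values was 3.26, against 0.87 in the CD26+ group (n = 2 each).

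VIL1 encodes villin, which bundles actin filaments in the microvillus core and severs them at high calcium. Its narrower probe set (chromosome 2, 219314500 to 219315223) read 4452 and 329 in CD26+ cells, against 1923 and 6849 on the arrays labelled CD26-. The wider (chromosome 2, 219288477 to 219314241) read 1972 and 275 in CD26+ cells, against 527 and 1192 on the arrays labelled CD26-. For both probe sets CD26+ replicate 2 was the lowest array and CD26- replicate 1 the next. They differed in which array was the highest, CD26+ replicate 1 for the wider and the array labelled CD26- replicate 2 for the narrower, and the ratio of the narrower to the wider was 2.26 and 1.20 in CD26+ cells and 3.65 and 5.75 on the arrays labelled CD26-. The alignments lie on the plus strand with 258 bases between them, with the narrower on the 3' side. The log2 fold change was -2.08 (standard error 1.67) for the narrower probe set and -0.67 (standard error 1.39) for the wider one, and without CD26+ replicate 2 it was 0.14 (standard error 0.92) and 1.15 (standard error 0.65). The direction of VIL1 therefore turned with the array that stood apart.

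MYO1A, the brush border myosin that links the actin core to the microvillus membrane, was the member listed as lower in the CD26+ cells. Its probe set (chromosome 12, 57422538 to 57442107) read 41.9 and 1337 in CD26+ cells, against 90.6 and 120 on the arrays labelled CD26-. The CD26+ arrays lay on either side of the CD26- arrays, with a normalized log2 difference of -4.24 between CD26+ replicates 1 and 2, while the CD26- arrays lay close together, with an SD of 0.045 (n = 2). On CD26+ replicate 2 the probe set was at the 90.2nd percentile of the array, and it was at the 37.0th on CD26+ replicate 1 and the 53.0th and 54.1st on the CD26- arrays. The log2 fold change was 1.17 (standard error 1.51) and turned to -0.95 (standard error 0.56) without CD26+ replicate 2.

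HNF4A was represented by 1 dim probe set (chromosome 20, 43029940 to 43059658). It read 40.8 and 82.0 in CD26+ cells, against 20.2 and 9.20 on the arrays labelled CD26-, below the median of the array on all 4 arrays, at the 36.5th and 21.7th percentile in CD26+ cells and the 26.3rd and 12.8th on the arrays labelled CD26-. The deposited alignment places it on the minus strand, whereas RefSeq places the HNF4A gene on the plus strand. Whether it measures HNF4A mRNA was not tested. In deposited signals both CD26+ arrays were above both CD26- arrays, but after normalization CD26+ replicate 2, with 5.60 on the log2 scale, lay under CD26- replicate 1, with 5.86. The log2 fold change was 0.51 (standard error 0.86), and 0.92 without CD26+ replicate 2.

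**Figure D2:**
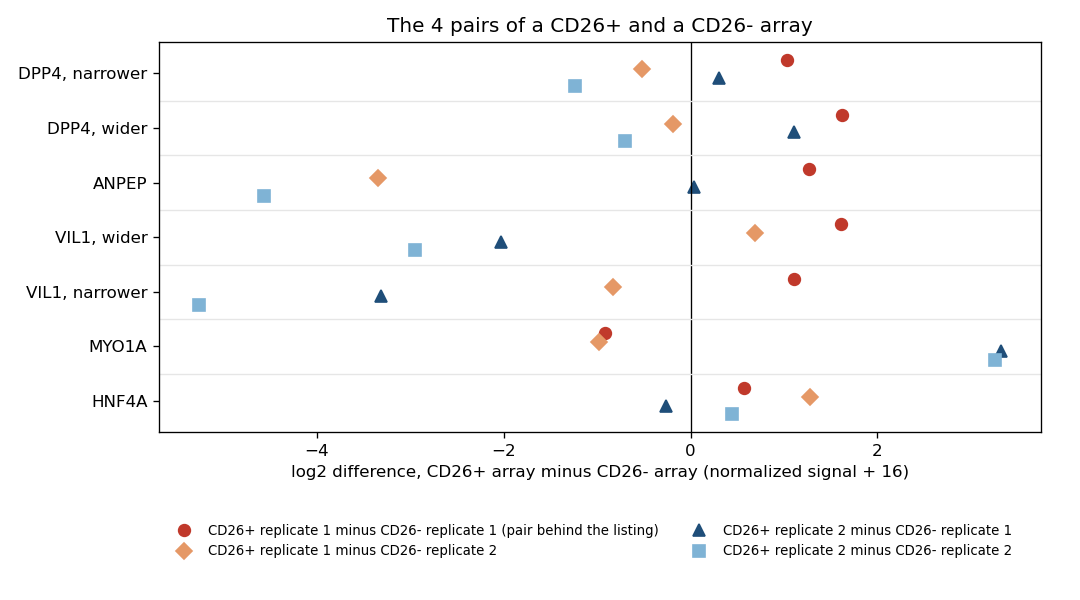
Log2 difference of each CD26+ array from each CD26- array for the member probe sets, from quantile normalized signals with 16 added, 1 point per pair of arrays. No member has all 4 points on the right of 0 or all 4 on the left, and MYO1A has its CD26+ replicate 1 points on the left and its CD26+ replicate 2 points on the right.

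Counted over the members, 0 of the 7 probe sets had both CD26+ arrays above, and 0 had both below, the 2 CD26- arrays after normalization. Over all probe sets these shares were 20.5% and 16.2%. Without CD26+ replicate 2, the wider VIL1 probe set and that of HNF4A were above both arrays labelled CD26- and MYO1A was below both. Over all probe sets, 35.6% were above both and 32.4% below both in these 3 arrays. The listing had fixed the members' difference from CD26- replicate 1 in each case. These shares are therefore no comparable background, and nothing is read from the counts.

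In the pairs of arrays outside the listing some members kept the sign of the listing and others did not. CD26+ replicate 1 was at least 2-fold above the array labelled CD26- replicate 2 for 1 member probe set, HNF4A with a ratio of 4.43 (17.2% of all probe sets), and at least 2-fold below it for 2, ANPEP and MYO1A with ratios of 0.0517 and 0.349 (25.3% of all probe sets). The wider probe sets of DPP4 and VIL1 had ratios of 1.03 and 1.65 in this pair, and the narrower ones had 0.595 and 0.650. The arrays of replicate 2, neither of which entered the listing, differed by at least 2-fold for 6 member probe sets. CD26+ replicate 2 was higher for MYO1A (ratio 11.1) and HNF4A (8.91), beside 56.4% of all probe sets. It was lower for the wider DPP4 probe set (0.389), ANPEP (0.0696), and the wider (0.231) and narrower (0.0480) VIL1 probe sets, beside 23.1% of all probe sets. The deposited arrays had nearly equal trimmed means, of 496 to 497, but the median of CD26+ replicate 2 was well above that of the other arrays, so the shape of its distribution differed and ratios of deposited signals carry that difference.

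The 2 CD26- arrays also differed from each other. The array labelled CD26- replicate 2 was at least 2-fold above CD26- replicate 1 for 5 of the 7 member probe sets, namely those of DPP4, ANPEP and VIL1, where 25.3% of all probe sets were that far above. The ratios were 3.31 (wider) and 4.28 (narrower) for DPP4, 64.5 for ANPEP, and 2.26 (wider) and 3.56 (narrower) for VIL1, against 1.32 for MYO1A and 0.457 for HNF4A, with a median of 1.15 over all probe sets. CD26- replicate 1 is also an array of the pair that chose the members, and a low signal there enters both comparisons. Relative to CD26- replicate 1, the wider DPP4 probe set was 1.62 and 1.10 higher on CD26+ replicates 1 and 2 and 1.81 higher on the array labelled CD26- replicate 2, on the normalized log2 scale. On the same scale ANPEP was 1.26, 0.04 and 4.61 higher on these arrays, and the narrower VIL1 probe set was 1.11 higher, 3.32 lower and 1.94 higher.

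**Figure D3:**
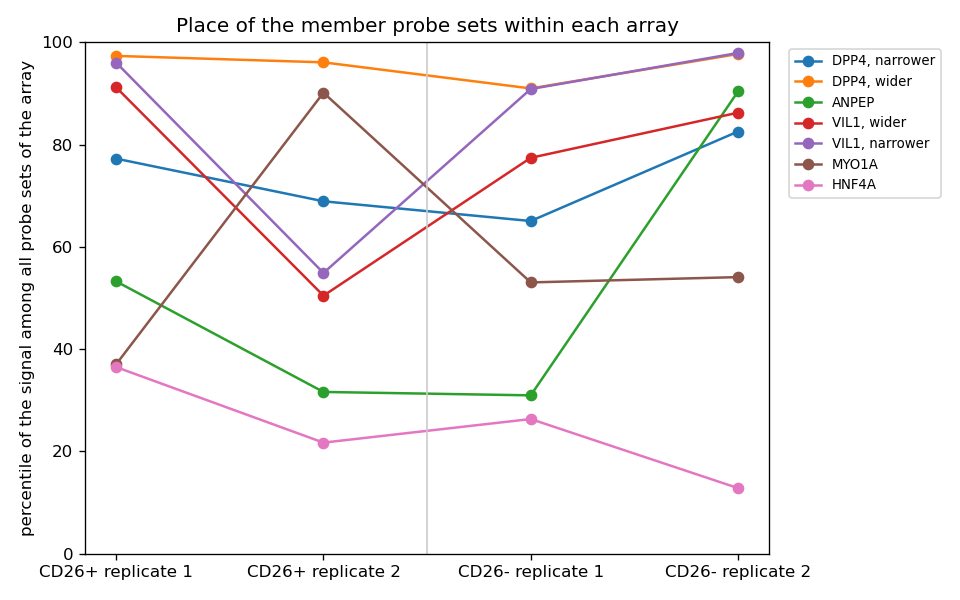
Percentile of each member probe set among all 54613 probe sets of the same array, 1 line per probe set, with CD26+ arrays left of CD26- arrays; lines join arrays for reading only. VIL1 falls to the 50.4th and 54.9th percentile on CD26+ replicate 2, where MYO1A stands at the 90.2nd, and ANPEP stands at the 90.4th percentile on the array labelled CD26- replicate 2 alone.

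Likeness to DPP4 was measured as the root mean square distance, over the 4 arrays, between normalized log2 values centred on their own mean, among 8411 probe sets with 1 symbol other than DPP4. The closest to the wider DPP4 probe set were CADPS2 (distance 0.04), RPL3 (0.04), ADRB1 (0.08), LOC100509130 (0.09), FBXO2 (0.12) and UBA7 (0.12), and none of these is in the brush border list. CADPS2, for a protein of vesicle priming, read 521 and 597 in CD26+ cells, against 107 and 624 on the arrays labelled CD26-. RPL3, a protein of the large ribosomal subunit with 5 probe sets in the table, read 16543 and 6360 against 4994 and 15526 with 1 of them. The members took different places by this measure. HNF4A stood 1889th at 0.90, the wider VIL1 probe set 4302nd at 1.28 and ANPEP 5384th at 1.47, where the median distance was 1.27. MYO1A came 6794th at 1.83 and the narrower VIL1 probe set 6944th at 1.88. The distance does not scale for how much a probe set varies, and HNF4A was dim. On the arrays labelled CD26- the centred values of HNF4A were 0.10 and -0.61. Those of the wider DPP4 probe set were -1.13 and 0.67, in the opposite order. Over the 3 arrays without CD26+ replicate 2, the narrower VIL1 probe set came 555th at 0.28 and the wider 1315th at 0.42, with a median of 1.01, while HNF4A came 4334th at 1.03, MYO1A 4541st at 1.06 and ANPEP 7274th at 1.41. The arrays of these distances include the pair behind the listing, where DPP4 and VIL1 were listed as higher on CD26+ replicate 1 and MYO1A as lower. That selection brings VIL1 nearer to DPP4 and sets MYO1A apart, so nothing is read from these places. With so few arrays the order is a description, and 0 of the 6 closest genes remained when the distance was taken over 3 arrays or from the narrower DPP4 probe set.

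The wider brush border list held 67 genes other than the members, and 20 of them have a probe set with 1 symbol. Where a gene has several, the one of highest mean was taken. CD26+ replicate 1 was above CD26- replicate 1 for 16 of the 20, beside 57.7% of all 6603 genes. These genes have a symbol only because they were listed for a difference in this same pair, so nothing is read from that count. CD26+ replicate 1 was above the array labelled CD26- replicate 2 for 8 of the 20, beside 3716 of all 6603 genes. In all 4 pairs of arrays across the groups, 0 genes were at least 2-fold higher (5.18% of all genes). On the lower side 1 gene, ELF3, was at least 2-fold apart (5.33%), and 0 of the 20 passed limma. These counts take the probe set of highest mean. Another probe set of GGT1 (smallest log2 difference 1.24) and another of FSCN1 (1.04) were at least 2-fold higher in all 4 pairs. Another of EZR (-1.04) was at least 2-fold lower. Over the list, log2 fold changes had a median of -0.31, against 0.04 over all genes, and 0.63 against 0.42 without CD26+ replicate 2.

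Of 13 further peptidase genes 1 is named. GGT1, which cleaves glutathione outside the cell, read 753 and 1324 in CD26+ cells, against 271 and 494 on the arrays labelled CD26-, and its other 3 probe sets gave log2 fold changes between 0.30 and 2.71. After normalization both CD26+ arrays were above both CD26- arrays for the probe set of highest mean.

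Of 23 genes of the microvillus core and of intermicrovillar adhesion 9 are named. On CD26+ replicate 1, 7 were above CD26- replicate 1 and 5 above the array labelled CD26- replicate 2. Over all 6603 genes these counts were 3813 and 3716. USH1C, a scaffold that anchors intermicrovillar cadherins, read 2401 and 1790 in CD26+ cells, against 517 and 1988 on the arrays labelled CD26-. ESPN, an actin-bundling protein, had 135 and 114 against 12.5 and 143. EZR, which encodes ezrin, a linker of actin to the membrane, had 596 and 403 against 1331 and 1733, lower on both CD26+ arrays. TPM1, a tropomyosin, had 4 probe sets, with log2 fold changes between -3.64 and 0.89.

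Of 8 apical transporters 4 are named, SLC5A1, SLC2A5, SLC7A9 and SLC3A1. On CD26+ replicate 1 all 4 were above CD26- replicate 1, beside 3813 of all 6603 genes. All 4 were below the array labelled CD26- replicate 2, beside 2886 of the 6603. SLC3A1, the heavy subunit of a transporter of cystine and dibasic amino acids, read 727 and 519 in CD26+ cells, against 283 and 7665 on the CD26- arrays. As with ANPEP, the array labelled CD26- replicate 2 stood far above the other 3 arrays. FABP1, a fatty acid binding protein and the 1 named gene of 8 for lipid and retinoid handling, had 151 and 74.6 against 23.6 and 247, and LCT, the lactase and the 1 named saccharidase, 78.4 and 493 against 23.7 and 93.9.

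Of 10 regulator genes 4 are named. By the probe set of highest mean, ELF3 was the 1 gene of the list at least 2-fold lower in all 4 pairs. ELF3, an epithelial ETS factor, read 1419 and 872 in CD26+ cells, against 3551 and 3396 on the arrays labelled CD26-, and its log2 fold change was -1.57 (standard error 0.83). CD26+ replicate 1 alone differed from the CD26- arrays, numbers 1 and 2 by label, by log2 values of -1.17 and -1.20. CDX1, a homeobox factor of intestinal epithelium, had 54.0 and 380 in CD26+ cells and 20.5 and 1015 on the arrays labelled CD26-, again with the array labelled CD26- replicate 2 the highest. Genes of this list other than ELF3 were picked as examples after their values were seen.

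**Figure D4:**
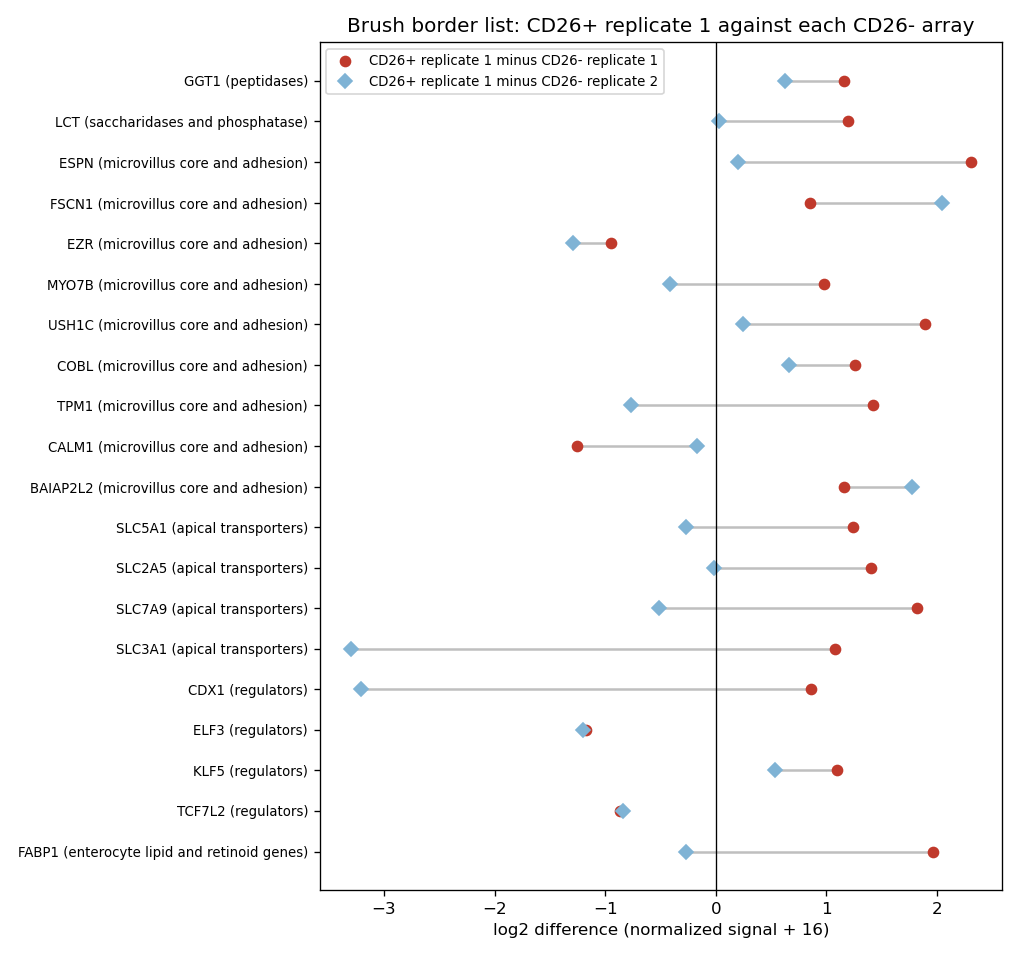
Log2 difference of CD26+ replicate 1 from CD26- replicate 1 (circles) and from the array labelled CD26- replicate 2 (diamonds) for the 20 named genes of the brush border list, normalized with 16 added; the array CD26+ replicate 1 is in both. The circles, drawn from the pair behind the listing, lie above 0 for 16 genes and the diamonds for 8. All 4 transporters have a diamond below 0. Over all 6603 genes, not drawn, the 2 differences are above 0 for 3813 and 3716.

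Markers of epithelial and other cells also differed between the arrays. Of 13 markers of intestinal epithelium 7 are named, VIL1 among them, and their summed signal was 57254 and 2881 in CD26+ cells and 62654 and 132738 on the arrays labelled CD26-. KRT19, KRT20, CDH1 and LGALS4 carry most of that sum on the other 3 arrays, and it was lowest on the array where VIL1 was lowest, CD26+ replicate 2. CDX1 and CDH17 were not lowest there, but below the array labelled CD26- replicate 2 and above the remaining arrays. CDH17, an intestinal cadherin, read 106 and 814 in CD26+ cells, against 235 and 3622 on the arrays labelled CD26-. At least 2-fold lower in all 4 pairs were 3 of the 7, the adherens junction gene CDH1 and the keratin genes KRT19 and KRT20, beside the 5.33% of all genes given above. The pairs include the one behind the listing and those with CD26+ replicate 2, the array that stood apart. There the probe sets of CDH1, KRT20 and KRT19 stood at the 4.58th, 7.21st and 11.5th percentile, so nothing is read from this count. CDH1 read 7312 and 27.7 in CD26+ cells, against 16099 and 24462 on the arrays labelled CD26-, while its other probe set was higher on CD26+ replicate 2, with 848, than on the other 3 arrays. Of 5 goblet markers 4 are named (TFF3, AGR2, SPDEF and FCGBP), with sums of 6951 and 2670 in CD26+ cells, against 1377 on CD26- replicate 1 and a sum of 25484 on the array labelled CD26- replicate 2, the array where ANPEP, SLC3A1 and CDX1 were highest. All 4 were at least 2-fold higher there than on CD26- replicate 1, beside 11 of the 20 genes of the brush border list and 16.5% of all named genes. Genes are named only for a difference between CD26+ replicate 1 and CD26- replicate 1, and all 4 were listed as higher on CD26+ replicate 1. A low signal on CD26- replicate 1 enters both comparisons, so nothing is read from this count. The 2 named fibroblast markers of 5, COL1A1 and DCN, summed to 370 and 3388 in CD26+ cells and to 41.6 and 374 on the arrays labelled CD26-. Of the other markers the table names 1 of 5 immune, 1 of 3 enteroendocrine and 0 of 3 endothelial genes. Whether the dim markers among those named were above background was not tested. The part of any of these in the members' values was not tested.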

How the data were processed

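FACS-sorted HT29 cells, 2 samples of CD26+ and 2 of CD26- cells, were profiled on Affymetrix U133 Plus 2.0 arrays. The deposited values are probe set intensities on a linear scale, for which the submitters' processing notes name Genomatix Genome Analyzer beside Genespring GX. Summarization, scaling and genome build were not given in the sources used here. A second deposited table of the authors holds a log2 fold change, a fold ratio and a score (a fold with a sign) for 1 CD26+ against 1 CD26- array. These columns were not used, and only its symbols, identifiers and alignments were read.

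The 62 control probe sets were left out, arrays were put on 1 distribution by quantile normalization, 16 was added, and log2 values entered lmFit and eBayes of limma 3.58.1 under R 4.3.3 (CD26+ minus CD26-, two-sided, Benjamini-Hochberg adjustment over 54613 probe sets, threshold 0.05). The fit was tested on simulated data. Ratios of signals are of deposited values. The number of arrays limits the precision. The members and lists were chosen with earlier results of these data known. Named are all member probe sets, the 6 genes closest to DPP4, and genes of the brush border list at least 2-fold apart in all 4 pairs, besides examples. Of the brush border list, 2 genes are not reported here.

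Alternatives were other scalings and pseudocounts, bright probe sets only, a replicate block, another prior, the methods' t-test and each array left out in turn.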

Additional observations from a re-analysis of the deposited data

How the results depend on the processing

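Limma called 0 probe sets under the other scalings, pseudocounts, priors and filter, 1 with a replicate block, and 0 to 23148 with each array left out, the highest without CD26+ replicate 1. The methods' t-test gave 1847 at an unadjusted p under 0.05 and 0 after adjustment. Replicate numbers were not taken to pair the arrays, and the deviations of the arrays numbered 1 correlated at 0.04. That value cannot decide whether arrays share a batch, because the CD26+ deviations are taken against CD26+ replicate 2, which stood apart. The count of member probe sets higher on both CD26+ arrays was 0 of 7. It was 1 with the values as deposited and 2 when CD26+ replicate 2 was dropped before normalizing (3 arrays). With each array left out it was 1 to 3. Over all probe sets the share was 20.5% with 4 arrays and 35.6% without CD26+ replicate 2. No such share is given for the other settings, so nothing is read from these counts.

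Signs of the members' log2 fold changes turned as follows. The narrower DPP4 probe set was 0.32 with the values as deposited and 0.33 with 3 arrays normalized, and ranged from -0.88 to 0.67 with each array left out. The wider was -0.49 with arrays centred on their medians and ranged from -0.44 to 1.36. With 3 arrays normalized the wider VIL1 probe set was 1.30, the narrower 0.17 and MYO1A -0.96. With each array left out they ranged from -2.49 to 1.15, from -4.29 to 0.14 and from -0.95 to 3.29, and ANPEP from -3.96 to 0.65. HNF4A kept its sign in every setting that measured it, with 1.31 for the values as deposited and 0.09 to 0.92 with each array left out. The causes were not tested.

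The counts of brush border list genes 2-fold apart in all pairs, by the probe set of highest mean, were 0 higher and 1 lower. They were 0 higher and 2 lower with the values as deposited and with arrays centred on their medians. With 3 arrays normalized they were 2 higher and 2 lower. With each array left out (chosen after seeing the data) they ranged from 1 to 6 and from 1 to 6. Leaving an array out leaves fewer pairs to pass, and no share over all genes is given for these settings, so nothing is read from these counts. With 2 arrays a group, 1 of them apart from the rest, small differences were not detectable, and large ones were not called either. KRT20 differed by -5.84 on the normalized log2 scale (CD26+ minus CD26-) in the main limma fit. That fit called 0 probe sets, and its smallest adjusted p was 0.79. The lack of calls therefore does not show that large differences are absent.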
